A study of Mus musculus with 24 samples.

Results

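Plau, Plaur, Plat, Serpine2, Serpinb2 and Ptgs2 were taken by name from the 55341 genes of the count table, 6 genes in all, and were followed across the 12 groups of the study. Plau and Plat encode urokinase and tissue plasminogen activator, the serine proteases that cut plasminogen into plasmin. Plasmin dissolves fibrin and opens the matrix around cells, and urokinase held at the cell surface by its receptor, the product of Plaur, is known for its part in cell migration and in the spread of mammary tumours. Serpine2 encodes protease nexin-1 and Serpinb2 encodes plasminogen activator inhibitor 2, both of which trap activators. Ptgs2 is no part of the plasminogen system. It encodes cyclooxygenase 2, the inducible enzyme that commits arachidonic acid to prostaglandins, and its repression by glucocorticoids is textbook knowledge in inflamed tissue.

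The libraries were made from total RNA of 3134 cells, a mouse line labelled mammary adenocarcinoma, after depletion of ribosomal RNA. All groups, controls included, held an IPTG-inducible hairpin RNA that targets NIPBL, and a construct integrated with piggyBac. NIPBL loads cohesin onto chromatin. The cells were kept for 3 days in charcoal-stripped serum, with 1 mM IPTG where stated, and took either 100 nM dexamethasone, a synthetic glucocorticoid, or ethanol for the last 2 hours. The 5 constructs were the mutants C1, C2 and C1-C2 (C1C2 in the sample titles), whose changes the labels do not give, then wild-type NIPBL and empty vector. Each of the 6 cell states was measured with dexamethasone and with ethanol in 2 libraries: C1 with IPTG, C2 with IPTG, C1-C2 with IPTG, wild-type NIPBL with IPTG, empty vector with IPTG, and empty vector without IPTG. No group had IPTG without the hairpin. Each construct was measured in 1 line, so a construct and its line cannot be told apart. The study's design text calls the replicates biological but ties no library to a separate culture or day, so the spread behind each p-value is that of these libraries and may be technical.

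Total counts were 45038685 to 72857880 in dexamethasone libraries and 32532858 to 42711188 in ethanol libraries, and the library names of the 2 treatments run in separate blocks, so that treatment and any batch in that order cannot be told apart. Nipbl had 48.0 to 73.3 CPM (counts scaled by library size) in the 20 libraries with IPTG and 151 to 186 CPM in the 4 without. Wild-type NIPBL cells and empty-vector cells with IPTG had 60.6 ± 7.88 and 55.45 ± 1.48 CPM of it in dexamethasone (adjusted p of edgeR 0.509) and 66.5 ± 5.48 and 63.8 ± 1.75 CPM in ethanol (0.894; SD, n = 2 each), with overlapping libraries, so the level of this gene does not show the wild-type construct. Whether reads of the constructs were counted on it was not tested. Replicate 2 of C1-C2 in ethanol has an ethanol title and a dexamethasone treatment label. It was grouped by its title, and its Per1 level of 24.4 CPM lies within the 22.15 to 26.55 CPM of the ethanol libraries and below the 269 to 308 CPM of the dexamethasone libraries. By chi-square on raw counts the 2 wild-type NIPBL libraries in dexamethasone differed more from each other than those of any other group. The value per degree of freedom was 20.8 against 5.46 to 15 elsewhere. This measure grows with sequencing depth. By correlation of log2 CPM these libraries stood at 0.9928, as did those of C1 in ethanol. The label of a mammary adenocarcinoma was not borne out by luminal markers: Epcam, Cldn3 and Cldn7 had 0 counts in every library and Krt18 averaged 0.0134 CPM. Of 9 luminal markers 1, Esr1, averaged over 1 CPM, at 4.04 CPM. Of 7 basal mammary markers 1, Krt14, averaged over 1 CPM, at 17.8 CPM, and Krt5 averaged 0.00557 CPM. Vim, Fn1 and Col1a2, markers of mesenchymal cells, averaged 3880, 1880 and 1620 CPM, and 6 of the 8 mesenchymal markers averaged over 1 CPM, with Col3a1 and Thy1 below 0.1 CPM.

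Plaur, Ptgs2, Serpinb2 and Serpine2, 4 of the 6 genes, were matched by symbol to a promoter table from RefSeq for GRCm38.p6, which gives 250 bases before to 50 bases after each annotated start. Serpinb2 has 2 entries, of which the upstream one is printed. Plau and Plat were not matched. The entries of Plaur and Ptgs2 are printed because both genes fell with dexamethasone in each of the 6 cell states, and that of Serpinb2 because its summed counts ranged from 1 to 88 over the cell states. Capitals mark matches, on either strand, to TGANTCA (the AP-1 motif), TTGCNNAA (C/EBP), TATAAA (the TATA box), TGACG (the core of a cAMP response element), CACGTG (an E box) and ACANNNTGT (the core of a glucocorticoid response element). GGGCGG (a GC box) was searched too and is not capitalised.
Plaur, chr7:24462233-24462532, plus strand: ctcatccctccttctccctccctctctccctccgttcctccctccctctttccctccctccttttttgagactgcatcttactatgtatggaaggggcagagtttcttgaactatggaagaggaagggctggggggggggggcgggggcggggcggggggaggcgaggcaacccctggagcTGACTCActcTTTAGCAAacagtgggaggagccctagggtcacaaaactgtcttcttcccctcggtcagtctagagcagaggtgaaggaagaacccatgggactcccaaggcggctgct
Ptgs2, chr1:150099781-150100080, plus strand: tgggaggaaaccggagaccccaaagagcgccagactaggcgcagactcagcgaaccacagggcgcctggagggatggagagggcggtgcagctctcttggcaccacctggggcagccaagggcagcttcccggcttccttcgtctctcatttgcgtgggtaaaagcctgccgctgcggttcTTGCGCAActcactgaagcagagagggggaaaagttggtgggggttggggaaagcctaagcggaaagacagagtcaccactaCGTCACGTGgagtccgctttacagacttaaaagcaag
Serpinb2, chr1:107511173-107511472, plus strand: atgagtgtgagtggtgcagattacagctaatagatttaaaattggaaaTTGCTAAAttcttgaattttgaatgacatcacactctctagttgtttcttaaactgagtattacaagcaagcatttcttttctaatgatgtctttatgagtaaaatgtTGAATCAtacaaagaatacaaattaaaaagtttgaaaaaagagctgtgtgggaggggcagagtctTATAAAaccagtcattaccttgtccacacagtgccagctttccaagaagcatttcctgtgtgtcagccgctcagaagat

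Counted from 0 at the first base of the annotated start, the Plaur window held TGACTCA at -69, a C/EBP match on the minus strand at -59, and GC boxes at -111, -105 and -100. The Ptgs2 window held the palindrome TTGCGCAA at -69, and a cAMP response element core on the minus strand at 13 that overlaps the E box at 16, and a GC box at -170. Serpinb2 held TTGCTAAA at -202, TGAATCA at -94 and TATAAA at -29. Of the 32851 promoters in the table, 7.81% held the AP-1 letters, 10.8% those of C/EBP, 13.6% the TATA box, 20.8% the cAMP response element core, 7.15% the E box, 35.7% the GC box and 6.85% the glucocorticoid core. The letters of the glucocorticoid core were not in these 3 windows. The Serpine2 window differed in composition, with 41 CpG and 77.7% G and C against medians of 7 and 52.7% over all promoters. A match describes letters only and says nothing of binding.

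In the mm10 coordinates of the count table, Plau (ENSMUSG00000021822.3) lies at chr14:20836660-20843385 on the plus strand, Plaur (ENSMUSG00000046223.10) at chr7:24462484-24475968 on the plus strand, and Plat (ENSMUSG00000031538.6) at chr8:22757727-22782844 on the plus strand. Serpine2 (ENSMUSG00000026249.10) lies at chr1:79794197-79861180 on the minus strand, Serpinb2 (ENSMUSG00000062345.10) at chr1:107511423-107535478 on the plus strand, and Ptgs2 (ENSMUSG00000032487.8) at chr1:150100031-150108227 on the plus strand. All 6 are protein-coding, and a count sums reads over all annotated exons of a gene. Serpinb2 shares 12.4% of its exon length with Serpinb10 on the same strand, which had 0 counts.

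Per kilobase of annotated exon, a scale meant for levels of different genes, Ptgs2 and Plaur stood highest of the 6 genes in both treatments. Ptgs2 averaged 7.11 CPM per kilobase over the 12 dexamethasone libraries and 26.9 over the 12 ethanol libraries, and Plaur averaged 11.5 in dexamethasone and 19.3 in ethanol. Plau averaged 0.649 CPM per kilobase in dexamethasone and 3.42 in ethanol, and Plat 0.498 in dexamethasone and 0.683 in ethanol. Plaur, the receptor, was thus present at a higher level per kilobase than either activator in both treatments. The divisor is the length of all annotated exons, 6241 bases for Plat and 2367 for Plau. Which transcripts the cells used was not determined. In CPM the dexamethasone libraries of Plat (2.42 to 4.47) all stood above those of Plau (1.17 to 1.85), so in dexamethasone their order depends on that length. Plg, which encodes plasminogen itself, had 12 counts over the dexamethasone libraries together and 1 count over the ethanol libraries.

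Plau, the urokinase gene, fell with dexamethasone in each of the 6 cell states, 4.27-fold in C1 cells and 5.91-fold in empty-vector cells without IPTG, the smallest and the largest of the 6 changes. In dexamethasone it had 1.51 and 1.52 CPM in C1 cells, 1.25 and 1.56 in C2, 1.17 and 1.52 in C1-C2, 1.57 and 1.73 in wild-type NIPBL, 1.595 and 1.37 in empty vector with IPTG, and 1.845 and 1.78 in empty vector without IPTG. In ethanol it had 5.30 and 7.635 CPM in C1 cells, 7.51 and 7.41 in C2, 6.33 and 7.65 in C1-C2, 7.98 and 10.55 in wild-type NIPBL, 6.58 and 8.725 in empty vector with IPTG, and 9.31 and 12.1 in empty vector without IPTG. No dexamethasone library reached the lowest ethanol library in any state. The adjusted p of the edgeR quasi-likelihood test ran from 2.37e-10 to 1.56e-08 over the 6 states. The states share no libraries in this comparison. Without the C1-C2 ethanol library of 2 labels the log2 change in C1-C2 cells was -2.23 for Plau, against -2.36 with it, and -2.11 for Ptgs2, against -2.08 with it, and both were called. Calls of a lower level, at an adjusted p under 0.05 over all 16934 tested genes, made up 15.2% of genes in C1, 15.7% in C2, 15.8% in C1-C2, 13.7% in wild-type NIPBL, 15.4% in empty vector with IPTG and 18.2% in empty vector without IPTG. In bulk RNA, fewer cells with a transcript and less of it per cell cannot be told apart.

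Plaur, the urokinase receptor gene, fell by less than Plau, 1.62-fold to 1.76-fold over the 6 states. Its 12 dexamethasone libraries had 25.8 to 35.6 CPM with a median of 29.9, and its 12 ethanol libraries 43.9 to 57.6 CPM with a median of 49.9. The 2 treatments did not overlap. The group means stood between 27.9 ± 2.91 CPM in C2 cells and 33.2 ± 3.5 CPM in C1 cells with dexamethasone, and between 46.98 ± 4.43 CPM in wild-type NIPBL cells and 55.3 ± 3.26 CPM in empty-vector cells without IPTG with ethanol (SD, n = 2 libraries each). The adjusted p of edgeR was 3.08e-06 or less in each state. A smooth trend of the libraries with length and GC content accounted for a log2 difference of 0.15 between treatments for Plaur. With that trend removed, its log2 changes ran from -0.98 in C2 to -0.84 in C1, against -0.82 to -0.70 with it, and were called in each state. Within a treatment the neighbours in the order of the 6 states mostly overlapped: in ethanol C1 libraries stood above those of C1-C2 without overlap, and every other neighbouring pair of either treatment overlapped.

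Plat, the gene of tissue plasminogen activator, had the lowest mean level per kilobase of Plau, Plaur, Plat and Ptgs2 over the 12 libraries of each treatment, though in C2 cells with dexamethasone it averaged 0.648 CPM per kilobase and Plau 0.593, and its dexamethasone response was small. Its 12 dexamethasone libraries had 2.42 to 4.47 CPM with a median of 3.03, and its 12 ethanol libraries 3.06 to 4.88 CPM with a median of 4.37, so the treatments overlapped over all states together. Within states they overlapped in C2 cells, which had 3.62 and 4.47 CPM in dexamethasone and 4.23 and 4.53 CPM in ethanol. Plat was called lower 1.65-fold in wild-type NIPBL cells (adjusted p of edgeR 0.003), 1.545-fold in empty vector with IPTG (0.00969), 1.47-fold in C1 (0.0187) and 1.45-fold in empty vector without IPTG (0.0266). It was not called in C2, with a log2 change of -0.12 and a 95% interval of -0.479 to 0.245 (adjusted p of edgeR 0.666), or in C1-C2, with a log2 change of -0.22 and an interval of -0.59 to 0.16 (adjusted p of edgeR 0.406). The responses of C2 and wild-type NIPBL cells differed by a log2 value of 0.61 with an interval of 0.093 to 1.123, which was not called (adjusted p of edgeR 1).

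The Plat call held in wild-type NIPBL cells with any 1 library left out, including each of the 2 dexamethasone libraries that differ most by chi-square. It was lost in the other 3 states. In empty vector without IPTG it was lost without replicate 2 in ethanol, where the log2 change was -0.24 against -0.53 with all libraries (adjusted p of edgeR 0.436), without replicate 1 in dexamethasone (0.0798) and without replicate 2 in dexamethasone (0.108), and with the trend of the libraries on length and GC content removed (0.0852). In empty vector with IPTG it was lost without replicate 2 in ethanol (0.0712) and without replicate 1 in dexamethasone, where the log2 change was -0.41 against -0.63 (0.175). In C1 it was lost without replicate 2 in ethanol, where the log2 change was -0.32 against -0.56 (0.292), and without either dexamethasone replicate (0.104 and 0.0584).

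**Figure D1:**
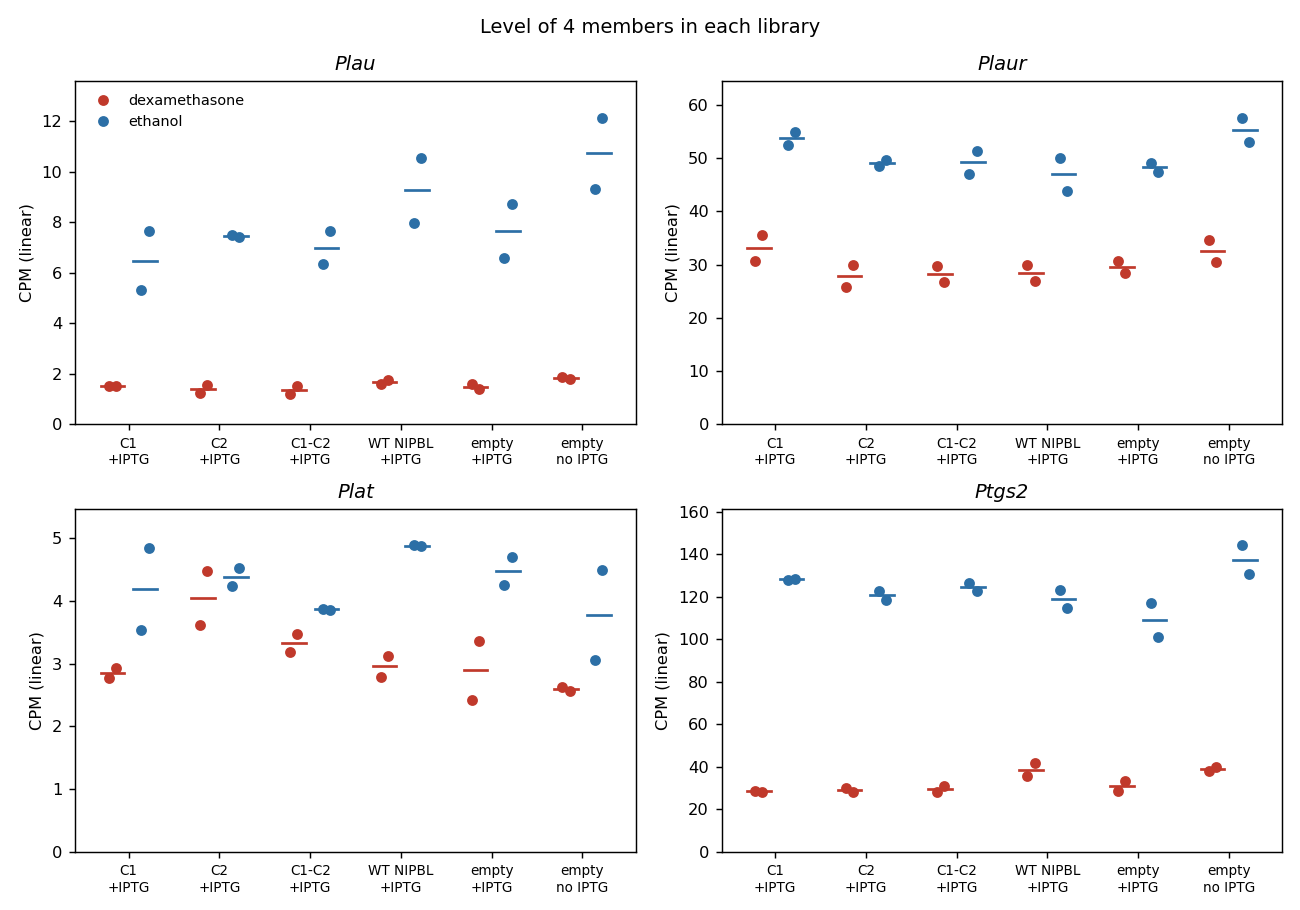
CPM on linear axes (vertical) of Plau, Plaur, Plat and Ptgs2 in each of the 24 libraries, by cell state (horizontal), with dexamethasone in red left of ethanol in blue; points are libraries and lines are means of 2. Dexamethasone points of Plau, Plaur and Ptgs2 lie below every ethanol point of the same gene, whereas those of Plat reach 4.47 CPM in C2 cells and overlap the ethanol points.

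Ptgs2 fell 3.09-fold with dexamethasone in wild-type NIPBL cells and 4.50-fold in C1 cells, the ends of its range. In dexamethasone it had 28.8 and 28.2 CPM in C1 cells, 29.9 and 28.3 in C2, 28.1 and 30.8 in C1-C2, 35.4 and 41.7 in wild-type NIPBL, 28.7 and 33.2 in empty vector with IPTG, and 38.0 and 39.8 in empty vector without IPTG. In ethanol it had 127.8 and 128.5 CPM in C1 cells, 122.8 and 118.4 in C2, 126.6 and 122.6 in C1-C2, 123.0 and 114.9 in wild-type NIPBL, 117.0 and 101.1 in empty vector with IPTG, and 144.1 and 130.5 in empty vector without IPTG. The treatments did not overlap, and with dexamethasone wild-type NIPBL cells and cells without IPTG stood above the other 4 states in every library. The adjusted p of edgeR was 2.16e-13 or less in each state. Ptgs2 transcripts hold 40% G and C, and a smooth trend of the libraries with length and GC content accounted for a log2 difference of -0.24 between treatments at this composition. With that trend removed, the fall of Ptgs2 was 1.46 to 1.91 on the log2 scale and was called in each state.

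Serpine2 had 2 counts in the 24 libraries together, 1 in a dexamethasone library and 1 in an ethanol library. This is 0.00179 CPM, with a 95% exact Poisson interval of 0.000217 to 0.00646 CPM that covers counting error only. A count of 0 in a library allows up to 0.0412 to 0.0922 CPM, taken as 3 counts of its total. Serpine2 did not pass the filter on low counts and has no test.

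**Figure D2:**
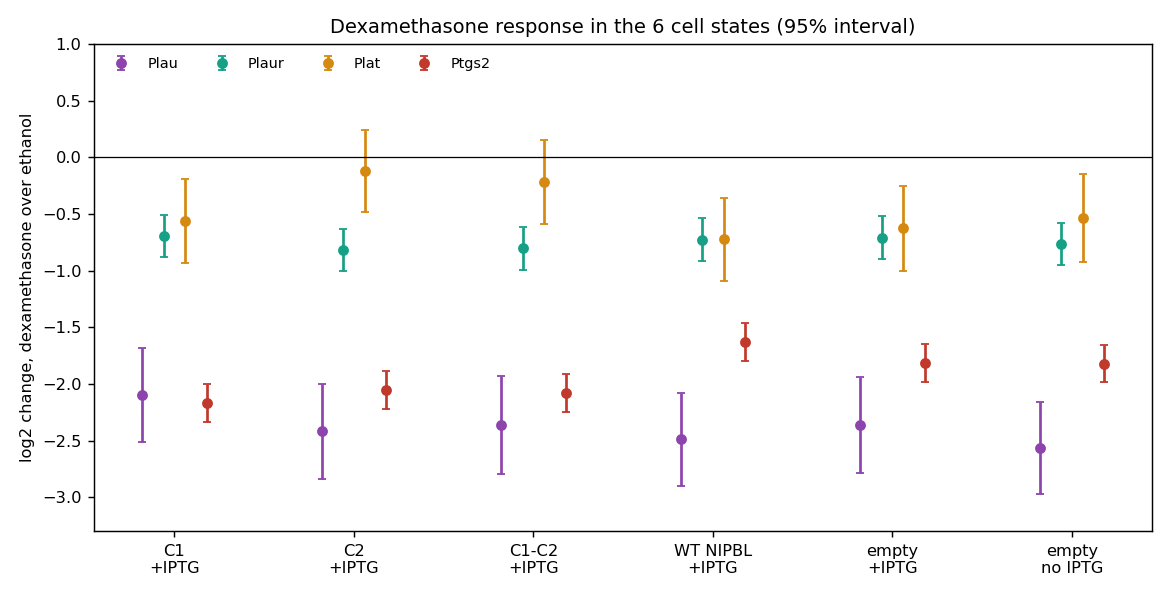
Log2 change, dexamethasone over ethanol (vertical), in the 6 cell states (horizontal) for Plau, Plaur, Plat and Ptgs2, with 95% intervals of the edgeR fit. Plau lies at -2.09 or below in each state, whereas the Plat intervals of C2 and C1-C2 cells include 0.

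Serpinb2 was near the limit of detection, with 232 counts in all, and passed the filter on low counts only through the groups in which it is higher. Over the 4 libraries of a cell state, both treatments together, it had 88 counts in C1 cells, 47 in C2, 59 in C1-C2, 27 in wild-type NIPBL, 10 in empty vector with IPTG and 1 in empty vector without IPTG. As a rate this was 0.435 CPM in C1 cells (95% exact Poisson interval 0.349 to 0.536, counting error only), 0.244 in C2, 0.325 in C1-C2, 0.143 in wild-type NIPBL, 0.0581 in empty vector with IPTG (0.0279 to 0.107) and 0.00564 in empty vector without IPTG (0.000143 to 0.0314). Single libraries spread widely: C2 cells had 5 and 21 counts in dexamethasone and 1 and 20 counts in ethanol, whereas C1 cells had 32 and 27 counts in dexamethasone and 9 and 20 in ethanol.

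Set against empty vector with IPTG, the summed counts of C1 cells gave a ratio of 5.82 in dexamethasone (95% interval 2.77 to 14.1) and of 13.8 in ethanol (3.49 to 119), intervals that cover counting error and not the spread between replicates. The libraries of the 2 states did not overlap in either treatment. C2 cells gave ratios of 2.77 in dexamethasone (1.22 to 7.07) and 10.1 in ethanol (2.46 to 88.6), with libraries that overlapped those of empty vector in both treatments. C1-C2 cells gave ratios of 4.89 in dexamethasone (2.25 to 12.1) and 8.81 in ethanol (2.14 to 77.7), with no overlap. With the spread between replicates the C1 difference was not called, with an adjusted p of edgeR of 0.315 in dexamethasone and 0.551 in ethanol. Since the groups in which Serpinb2 is higher decided that it was tested, its p-values are a description only. Against wild-type NIPBL, C1 cells had ratios of 2.87 in dexamethasone (1.67 to 5.17) and 3.34 in ethanol (1.54 to 8.02), and these were not called either (adjusted p of edgeR 0.268 and 0.528). In dexamethasone, cells with IPTG and empty vector had 8 counts and cells without IPTG 0 counts. The lower 95% limit of that ratio was 1.72 from counting error alone, and edgeR did not call the difference (adjusted p 0.209). With no filter on low counts Serpinb2 passed the threshold in 6 of the 27 comparisons, whereas edgeR with the filter called it in 0 of 27 and DESeq2 in 0 of 27, with 6 at an unadjusted p under 0.05 in DESeq2. With only the libraries compared in the fit, edgeR tested it in 11 comparisons and called it in 2, C1 and C1-C2 over empty vector in dexamethasone (adjusted p 0.00567 and 0.0273). C3ar1, Havcr2 and Itgb7, genes known from leukocytes, were the genes whose 12 group means were most like those of Serpinb2. Their Pearson correlations were 0.94, 0.90 and 0.89. This is a description over 12 group means, of which each line gives 2, and empty vector 2 more without IPTG. Of the 8 leukocyte markers 2, Cd68 and Lyz2, averaged over 1 CPM, at 9.46 and 2.45 CPM. The other 6 averaged under 0.1 CPM, among them Adgre1 with 0 counts and Ptprc at 0.0066 CPM. The summed level of the 8 markers, most of it from Cd68, was 10.7 to 14.6 CPM in dexamethasone libraries and 9.31 to 13.03 CPM in ethanol libraries. Its part in the Serpinb2 counts was not tested.

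**Figure D3:**
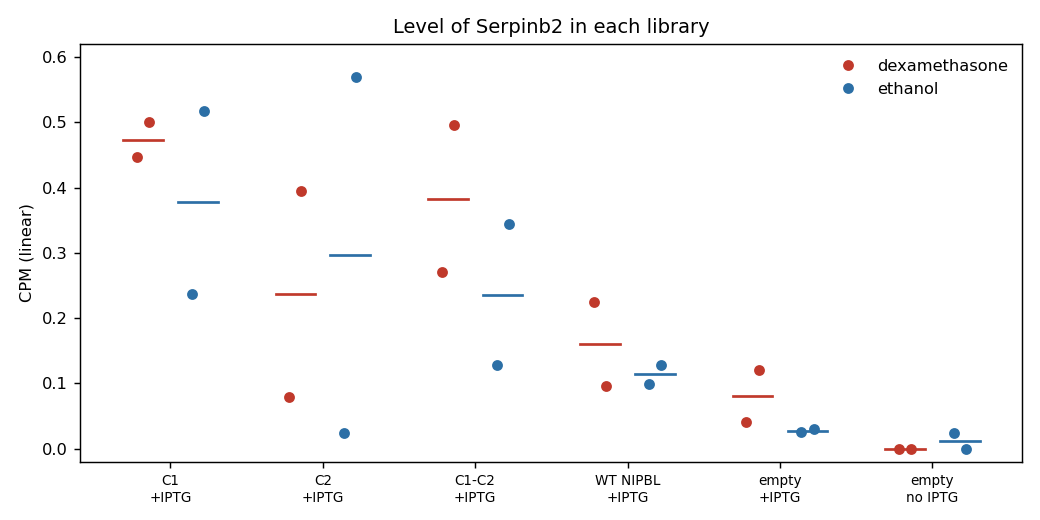
CPM of Serpinb2 on a linear axis (vertical) in each of the 24 libraries by cell state (horizontal), dexamethasone in red left of ethanol in blue; points are libraries and lines are means of 2. The highest points, 0.570 and 0.518 CPM, belong to C2 and C1 cells in ethanol, and a C2 library of the same group as the highest has 0.0245 CPM.

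Ptgs2 was lower with IPTG, which induces the hairpin, in both treatments, and an effect of IPTG itself cannot be told apart from that of the hairpin. In dexamethasone, empty-vector cells with IPTG averaged 30.98 ± 3.2 CPM and those without IPTG 38.9 ± 1.24 CPM (SD, n = 2 each), a 1.26-fold lower level (adjusted p of edgeR 0.00708). In ethanol, cells with IPTG averaged 109 ± 11.2 CPM and those without 137 ± 9.66 CPM, again 1.26-fold lower (adjusted p of edgeR 0.00508). Libraries with and without IPTG did not overlap. Of all tested genes 8.49% were called lower in dexamethasone and 6.24% in ethanol. The call was lost in dexamethasone without replicate 1 with IPTG (adjusted p of edgeR 0.125) or replicate 2 without IPTG (0.0684), and in ethanol without replicate 2 with IPTG (0.171) or replicate 1 without IPTG (0.103). Over every library left out in turn the log2 change was -0.44 to -0.23 in dexamethasone and -0.44 to -0.23 in ethanol.

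Among empty-vector libraries, Plau had lower CPM in each library with IPTG than in those without, in both treatments, but passed the threshold in neither. The log2 change was -0.29 in dexamethasone with a 95% interval of -0.76 to 0.19 (adjusted p of edgeR 0.449), and -0.49 in ethanol with an interval of -0.85 to -0.13 (adjusted p of edgeR 0.0666, and 0.0425 to 0.453 with each library left out). The ethanol value passed with no filter on low counts (adjusted p of edgeR 0.0123) and with the replicate number as a block (adjusted p of edgeR 0.00983). Plaur had log2 changes of -0.14 (interval -0.33 to 0.05) in dexamethasone and -0.20 (-0.38 to -0.01) in ethanol, with adjusted p of edgeR of 0.345 in dexamethasone and 0.164 in ethanol. With only the libraries compared in the fit, the ethanol value passed (adjusted p of edgeR 0.0453). The empty-vector libraries with and without IPTG overlapped for Plaur in dexamethasone and stood apart in ethanol. Plat had log2 changes of 0.16 in dexamethasone and 0.26 in ethanol, with overlapping libraries. The size of the dexamethasone response did not pass the test of a difference between cells with and without IPTG for Ptgs2, whose log2 difference was 0.00 with an interval of -0.23 to 0.24.

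In dexamethasone edgeR called differences between constructs for Ptgs2 only. Wild-type NIPBL cells averaged 38.6 ± 4.43 CPM and empty-vector cells with IPTG 30.98 ± 3.2 CPM (SD, n = 2 each), a 1.24-fold higher level (adjusted p of edgeR 0.0315), in a comparison in which 2.36% of genes were called higher. C1 cells averaged 28.5 ± 0.449 CPM, 1.35-fold below wild-type NIPBL cells (adjusted p of edgeR 0.00273). C2 cells averaged 29.1 ± 1.11 CPM and stood 1.32-fold below them (adjusted p of edgeR 0.00636), and C1-C2 cells averaged 29.5 ± 1.96 CPM and stood 1.31-fold below them (adjusted p of edgeR 0.0163). No library of a mutant reached the lower wild-type NIPBL library at 35.4 CPM. Calls of a lower level made up 2.7% of genes for C1, 2.58% for C2 and 0.732% for C1-C2. Over the 3 comparisons of a mutant with wild-type NIPBL, edgeR called 3 of 15 tests, and 5 had an unadjusted p under 0.05. The 15 tests include those of Serpinb2, whose p-values are a description only. Log2 changes were -0.28 to -0.12 for Plau, -0.03 to 0.22 for Plaur and -0.05 to 0.45 for Plat. Plat in C2 passed with the replicate number as a block (adjusted p of edgeR 0.0481). Plaur in C1 passed with no filter on low counts (adjusted p of edgeR 0.0147). The 4 Ptgs2 comparisons share the wild-type NIPBL libraries, so their values are set side by side and are no repeats of each other.

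The values depended on which of those 2 libraries was used. Without replicate 1 of wild-type NIPBL in dexamethasone the log2 changes of Ptgs2 were -0.55 (C1), -0.52 (C2) and -0.50 (C1-C2), and without replicate 2 they were -0.31, -0.28 and -0.26, of which that of C1-C2 was no longer called (adjusted p of edgeR 0.162). The C2 call was also lost without C2 replicate 2 in dexamethasone (adjusted p of edgeR 0.115), and that of C1-C2 without its replicate 1 (0.248) or 2 (0.0618) in dexamethasone. The call of wild-type NIPBL over empty vector was lost without its replicate 2 (0.195) or replicate 1 of empty vector (0.282) in dexamethasone, and narrowly without either ethanol replicate of wild-type NIPBL (0.053 and 0.0533) or C1 (0.0575 and 0.0573). With the trend on length and GC content removed, wild-type NIPBL over empty vector gave a log2 change of 0.20 (adjusted p of edgeR 0.168) and C1-C2 over wild-type NIPBL -0.29 (0.0618). With only the libraries compared in the fit, the calls of wild-type NIPBL over empty vector (adjusted p of edgeR 0.185), C2 (0.111) and C1-C2 (0.132) were lost and that of C1 was kept (0.0375). The C1 call held with each of the 24 libraries left out in turn.

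**Figure D4:**
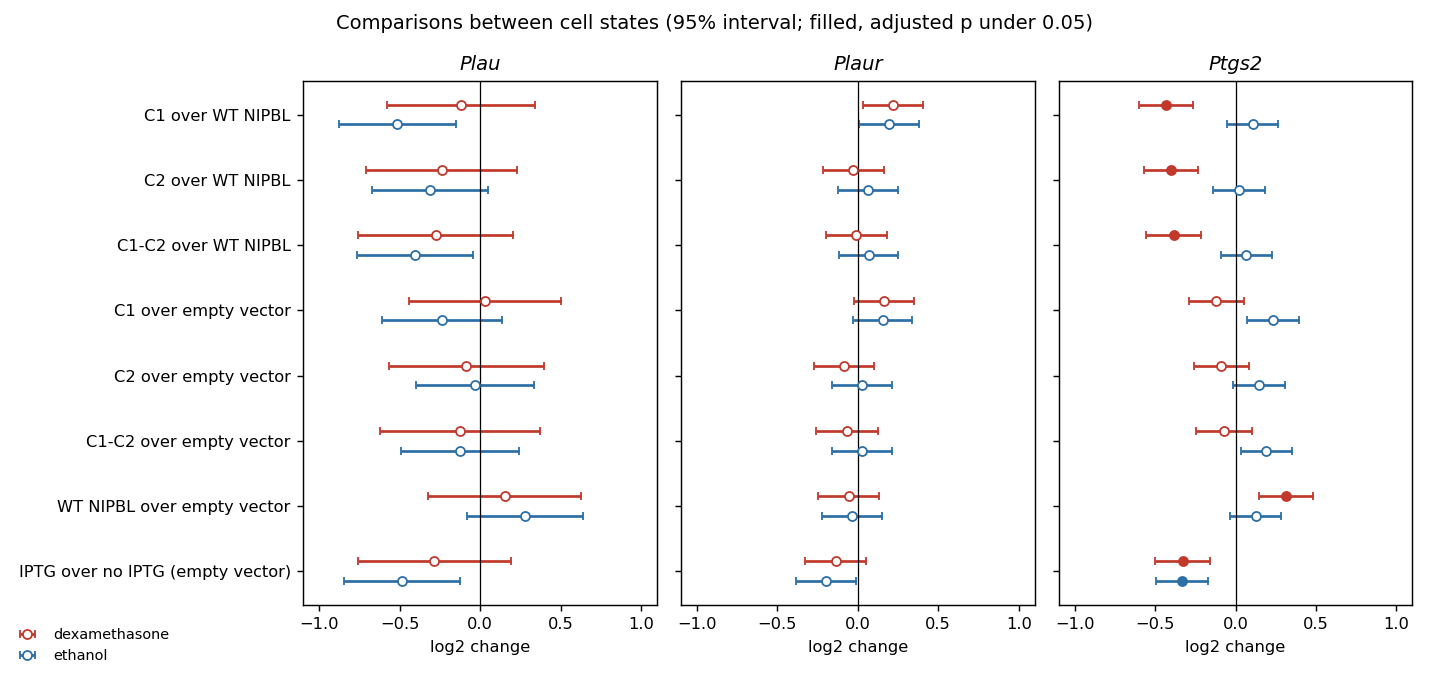
Log2 change (horizontal) of Plau, Plaur and Ptgs2 in the comparisons between cell states (vertical), in dexamethasone (red) above ethanol (blue), with 95% intervals of the edgeR fit and filled points for an adjusted p under 0.05. The 6 filled points all belong to Ptgs2, 5 of them in dexamethasone.

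In ethanol no difference between constructs passed the threshold of edgeR for the 5 genes tested. Ptgs2 lay between a log2 value of 0.12 and 0.23 above empty vector with IPTG in the 4 constructs and between 0.02 and 0.11 above wild-type NIPBL in the 3 mutants, and none of these passed the threshold (adjusted p of edgeR 0.414 to 0.979 and 0.653 to 0.934). Plau in C1 cells had 6.47 ± 1.65 CPM and in wild-type NIPBL cells 9.27 ± 1.82 CPM (SD, n = 2 each). The log2 change was -0.52 with an interval of -0.88 to -0.15 (adjusted p of edgeR 0.169). It passed with no filter on low counts (adjusted p of edgeR 0.0228) and with the replicate number as a block (adjusted p of edgeR 0.0254). In ethanol the 4 comparisons with empty vector held 20 tests of these genes, of which edgeR called 0 and 5 had an unadjusted p under 0.05, and the 3 comparisons of a mutant with wild-type NIPBL held 15 tests, of which edgeR called 0 and 3 had one. DESeq2 called 0 of them. Both counts of tests include Serpinb2, whose p-values are a description only. Among all tested genes 1.16% were called in either direction for wild-type NIPBL, 0.272% for C1, 0.224% for C2 and 0.0591% for C1-C2 against empty vector, and 2% for C1, 2% for C2 and 0.768% for C1-C2 against wild-type NIPBL. In dexamethasone 0 of the genes were called for C1, C2 or C1-C2 against empty vector, where 0.537%, 0.644% and 0.1% of all tested genes were. Over the 4 dexamethasone comparisons with empty vector 4 of 20 tests had an unadjusted p under 0.05 in edgeR, and DESeq2 called 1, that of Ptgs2 for wild-type NIPBL (adjusted p 0.0137). Serpinb2 is again among these 20 tests.

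The difference between dexamethasone responses was tested directly. Relative to wild-type NIPBL cells, the log2 change of Ptgs2 with dexamethasone was more negative in the mutants, a larger fall. The differences were -0.54 in C1 cells (95% interval -0.77 to -0.31), -0.42 in C2 cells (-0.66 to -0.19) and -0.45 in C1-C2 cells (-0.69 to -0.22). These differences share the wild-type NIPBL libraries of both treatments, so they are no repeats of each other. Their unadjusted p of edgeR's test were 7.75e-05, 0.00104 and 0.000571, but adjusted over all genes they came to 0.262, 0.627 and 1, so none passed. Over the 5 differences of responses edgeR called 0 of 25 tests of these genes, with 4 at an unadjusted p under 0.05, and DESeq2 called 1, that of Ptgs2 in C1 cells (adjusted p 0.0283). The 25 tests include those of Serpinb2, whose p-values are a description only. All tested genes were called at 0.0118% for C1, 0.00591% for C2 and 0% for C1-C2 against wild-type NIPBL, at 0.0118% for wild-type NIPBL against empty vector and at 0.171% for IPTG against no IPTG. With no filter on low counts the Ptgs2 differences passed in C1, C2 and C1-C2 (adjusted p of edgeR 9.32e-05, 0.0156 and 0.0066). With the replicate number as a block within treatment, that of C1 passed (adjusted p of edgeR 0.00917). The test of C1 passed without replicate 1 of wild-type NIPBL in dexamethasone, with an adjusted p of edgeR of 0.0316 and a range of 0.0316 to 1 over each library left out.

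Across the 12 group means of log2 CPM, Plau, Plaur and Ptgs2 ran together, with Pearson correlations of 0.97 between Plau and Plaur, 0.99 between Plau and Ptgs2 and 0.97 between Plaur and Ptgs2. The treatment splits these points, and over the 6 dexamethasone means alone the values were 0.57, 0.87 and 0.13 and over the 6 ethanol means alone 0.15, 0.31 and 0.82. Of 10805 genes with at least 1 CPM on average, those most like Plau were Frmd6, Tsc22d2 and Ppp1cb (0.99 or more, 12 means). Those most like Ptgs2 were Ddx50, Ier3 and Chkb, those most like Plaur were Hsp90b1, Chm and Rap1b, and those most like Plat were G0s2, Mdh1 and Isoc1, the last 3 at 0.90 to 0.92.

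Other genes of the plasminogen system were read from a list of 14, of which 8 passed the filter on low counts. In the dexamethasone response of empty-vector cells without IPTG 3 of the 8 passed the test, each higher, with a median log2 change of 0.35 over the 8 against 0.005 over all tested genes, and 19.8% of all tested genes were called higher. By their log2 changes they were Eno1 (0.96), which encodes an enolase that also binds plasminogen at the cell surface, S100a10 (0.40), a subunit of the annexin A2 receptor of plasminogen, and Masp1 (0.33), a protease of the lectin pathway of complement. With IPTG in ethanol 3 passed the test, each higher: Tmprss6, a membrane serine protease, S100a10 and Anxa2 had log2 changes of 1.92, 0.45 and 0.25, where 7.16% of all tested genes were called higher. The Masp1 call was lost when either ethanol replicate or replicate 1 in dexamethasone was left out (adjusted p of edgeR 0.0526 to 0.093), and those of Tmprss6 and Anxa2 when replicate 1 without IPTG (0.135 and 0.0888) or replicate 2 with IPTG (0.113 and 0.0742) was.

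Of 18 genes for partners of the urokinase receptor and for its clearance 10 passed the filter, and 2 rose and 4 fell with dexamethasone in cells without IPTG, where 19.8% of all tested genes were called higher and 18.2% lower. The integrin gene Itga5 had a log2 change of 1.08, the collagen receptor gene Mrc2 one of -0.39, the integrin gene Itgav one of -0.36 and the lipoprotein receptor gene Lrp8 one of -0.21, and the median of the 10 was 0.13. With IPTG in ethanol 1 rose and 1 fell, where 7.16% of all tested genes were called higher and 6.24% lower: Itgav rose by 0.31 and Itga3 fell by 0.28 on the log2 scale. The call of Lrp8 was lost without ethanol replicate 1 (adjusted p of edgeR 0.101) and that of Itga3 without replicate 1 with IPTG (0.0943).

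Of 20 genes of prostanoid synthesis, breakdown and reception 12 passed the filter, and 3 rose and 1 fell with dexamethasone in cells without IPTG, where 19.8% of all tested genes were called higher and 18.2% lower. Ptgds, a prostaglandin D synthase gene, had a log2 change of 1.51, Slco2a1, the prostaglandin transporter gene, one of 0.61, and Ptges2, a prostaglandin E synthase gene, one of 0.46. Pla2g4a, whose phospholipase frees arachidonic acid, had a log2 change of -0.43, the same direction as Ptgs2, and the median of the 12 was 0.11. Ptgs1, the gene of cyclooxygenase 1, had 40.1 to 74.2 CPM in dexamethasone libraries and 37.1 to 68.1 CPM in ethanol libraries. With IPTG in ethanol 1 rose and 2 fell, against 7.16% of all tested genes called higher and 6.24% lower. Pla2g4a and Ptgs1 fell by 0.48 and 0.38 on the log2 scale, and Ptgr1, a prostaglandin reductase gene, rose by 0.49.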

How the data were processed

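RNA of 24 libraries, 12 groups of 2, was measured as raw counts per gene that the authors deposited in 1 table. Per the submitters' processing notes, the tools were bcl2fastq 2.20, cutadapt 1.18, STAR 2.7.0f and featureCounts of Subread 2.0.3, on mm10, and per the labels the libraries were stranded total RNA after ribosomal depletion. The strand setting, the annotation release and the handling of reads with several positions are not given in the sources used here. All 55341 gene names of the table are in GENCODE vM21, 55244 with the same coordinates. Every count column was matched to a sample by its name, with 0 columns left over.

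From these counts, edgeR 4.0.16 (R 4.3.3, limma 3.58.1) kept 16934 genes with filterByExpr and removed 38407. It scaled libraries by TMM and fitted 1 mean for each of the 12 groups over all 24 libraries by quasi-likelihood, with 12 residual degrees of freedom and a median biological coefficient of variation of 6.43%. Each of 27 comparisons was adjusted by Benjamini-Hochberg over all tested genes, with 0.05 as the threshold of a call. CPM use the TMM library sizes, and CPM per kilobase divide them by exon length. The method was tested on simulated data. Alternatives were DESeq2 1.42.0, other scaling and filters, the replicate number as a block, only the libraries compared, the library with 2 labels moved, the 2 most abundant genes (Gm26917 at 11.1% and Gm42418 at 2.09% of counts) removed, a length and GC trend removed, and each library left out.

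The 6 genes were named everywhere. Of each of 3 lists, up to 4 called genes of largest change were named in the dexamethasone response of cells without IPTG and in the ethanol knock-down comparison. 1 gene of a list is not reported here and is left out of its counts. For each tested gene of the 6, the 3 most alike by Pearson correlation were named. The 6 genes and the lists were chosen with earlier results of these data known.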

Additional observations from a re-analysis of the deposited data

How the results depend on the processing

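Over the 135 log2 changes computed, 3132 of the values with 1 library left out and 1300 of those under another setting kept direction and side of the threshold, against 31 and 18 that lost a call, 5 and 15 that gained one and 72 and 17 that turned sign. With 2 libraries a group, most libraries left out were not among those compared, and many of the changes were not called at the start. The tally is therefore no measure of how robust the calls are. With each library left out in turn, the calls among the 6 genes numbered 21 to 22 for the dexamethasone responses (22 with all libraries), 1 to 3 for knock-down (2), 0 to 1 for a construct against empty vector (1), 2 to 3 for a mutant against wild-type NIPBL (3) and 0 to 1 for the differences of responses (0). With no filter on low counts they numbered 4 for knock-down, 6 for constructs, 6 for mutants and 3 for differences, the last 3 all of Ptgs2 in the mutants. Of these calls 6 were of Serpinb2, in knock-down, constructs and mutants, and its p-values are a description only. With only the libraries compared the calls among the 6 genes numbered 2 for constructs, both of Serpinb2 and not that of Ptgs2, and 1 for mutants. The length and GC trend left 0 for constructs, and DESeq2 called 1 difference. With the library of 2 labels moved to dexamethasone there were 0 for knock-down, constructs and mutants. Ptgs2 in C1-C2 then turned to 0.97 over empty vector and 0.66 over wild-type NIPBL in dexamethasone and 0.56 for the difference of responses. Plau, Plaur and Ptgs2 lost their dexamethasone calls in C1-C2 (adjusted p of edgeR 0.537, 0.468 and 0.374) and Ptgs2 its call in wild-type NIPBL (0.0521), and the calls of all genes for the C1-C2 response numbered 1, against 5464. The trend removal took the calls of all genes without IPTG to 3752, against 6438. The causes were not tested.

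The difference of the Ptgs2 response with and without IPTG lay near 0 and turned to -0.008 with other scaling factors, -0.006 with no filter, -0.013 with only the libraries compared, -0.003 with the library moved, -0.005 without the 2 most abundant genes, -0.06 with the trend removed and -0.007 in DESeq2, and ran from -0.107 to 0.107 with each library left out. Leaving out each library, Plat ran from -0.272 to 0.031 for dexamethasone in C2, from -0.094 to 0.38 for knock-down in dexamethasone and from -0.01 to 0.548 for knock-down in ethanol. Ptgs2 ran from -0.191 to 0.02 for C2 and from -0.174 to 0.037 for C1-C2 over empty vector in dexamethasone, and from -0.032 to 0.062 for C2 over wild-type NIPBL in ethanol.

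Over 66 pairs of groups the deviations of same-numbered libraries correlated at -0.221 to 0.283, with a median of 0.053. With the replicate number as a block, however, edgeR called more of all tested genes in every comparison. The calls rose from 2270 to 2922 for knock-down in ethanol. For wild-type NIPBL over empty vector in dexamethasone they rose from 712 to 1395. Whether same-numbered libraries shared a culture or a day was not tested. With the replicate block Plau passed the threshold in ethanol for knock-down (adjusted p of edgeR 0.00983) and for C1 against wild-type NIPBL (0.0254). The mutants then had 5 calls against wild-type NIPBL, and with the replicate block within treatment the differences of responses had 1. Of the genes most like each of the 6, a Spearman correlation shared 2 for Plaur, 1 for Serpinb2 and 0 for Plau, Plat and Ptgs2.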

Other observations

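Other serpin genes were read, with Serpinb2, after their values were seen. Of 67 serpin genes counted, 24 passed the filter on low counts. With dexamethasone in empty-vector cells without IPTG 2 rose and 2 fell, where 19.8% and 18.2% of all tested genes did by the edgeR quasi-likelihood test. Serpina3n, an acute-phase antiprotease gene, averaged 3.57 ± 0.0769 CPM in dexamethasone and 1.28 ± 0.165 CPM in ethanol (SD, n = 2 each), a 2.79-fold rise. With IPTG in ethanol 3 rose and 3 fell, where 7.16% and 6.24% of all tested genes did. Serpinb8 averaged 23.3 ± 0.151 CPM with IPTG and 14.5 ± 1.59 CPM without, and Serpinb9b averaged 27.1 ± 3.35 CPM with IPTG and 10.2 ± 0.662 CPM without. Serpinb9f fell to 5.4 ± 0.636 CPM with IPTG, against 11.3 ± 0.241 CPM without. The Serpinb9 genes are closely related tandem copies, so reads may be split between them and their levels are uncertain.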
